A study of Homo sapiens with 6 samples.

Results

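The upstream-flank peaks of the UHRF1 tandem Tudor domain (TTD) are stretches of TTD binding that ended before a gene start without reaching it. They were taken from the list of broad TTD peaks as all peaks that contained no transcription start site (TSS) of a protein-coding gene, had their nearest such TSS within 2500 bp of the peak edge, and lay upstream of it by the strand of the gene. Of 31569 TTD peaks, 1674 met these conditions. They lay before 1663 of the 20033 protein-coding TSSs of GENCODE v44 (8.30%), here the outermost start of each gene. The peaks came from untreated HepG2, a human hepatoblastoma-derived line that still makes many plasma proteins. Chromatin was cut to single nucleosomes with micrococcal nuclease and pulled down by CIDOP, in which a GST-tagged TTD takes the place of a ChIP antibody. The series holds 6 libraries, 2 of TTD CIDOP, 2 of input and 2 of a ChIP against H3K9me2, and the single peak list was called on the mean of both TTD replicates. It carries positions and widths with no height, no p-value and no replicate values, so the depth behind a peak is unknown and no test over samples could be made from it. Values of the single libraries were not analysed here. Shares are given with 95% Wilson intervals and medians with 95% order-statistic intervals. Both describe counting over regions of this list only.

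The TTD is the part of UHRF1, an E3 ubiquitin ligase needed to maintain DNA methylation, that reads methylated lysine 9 on the tail of histone H3. Its grip on H3K9me2 and H3K9me3 is stronger where lysine 4 of the same tail carries a single methyl group, a mark found at enhancers and beside promoters, and trimethylated lysine 4 marks the nucleosomes at active start sites themselves. Promoters of widely expressed genes mostly sit in CpG islands, stretches rich in unmethylated CpG, whereas many promoters of liver genes are poor in CpG. The flank of a promoter is thus where a CpG island, its active start site and the surrounding chromatin meet.

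The DNA on either side of the peak edge is shown for 7 members that span both kinds of promoter. For each gene the line marked peak holds the 150 bases of the peak nearest the TSS and the line marked start holds the last 150 bases before the TSS, in hg38, in the direction of transcription and free of annotated exons, with each CpG in capitals. FGA, AHSG and APOB encode the fibrinogen alpha chain, fetuin-A and apolipoprotein B, all secreted by liver. MRPL17, RPSA and PSMD1 encode a mitochondrial ribosomal protein, a cytosolic ribosomal protein and a proteasome subunit, and ZNF45 encodes a zinc finger protein.
FGA peak, chr4:154591041-154591190, minus strand: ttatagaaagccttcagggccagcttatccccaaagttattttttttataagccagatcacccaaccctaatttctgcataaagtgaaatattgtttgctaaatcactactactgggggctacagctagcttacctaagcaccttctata
FGA start, chr4:154590743-154590892, minus strand: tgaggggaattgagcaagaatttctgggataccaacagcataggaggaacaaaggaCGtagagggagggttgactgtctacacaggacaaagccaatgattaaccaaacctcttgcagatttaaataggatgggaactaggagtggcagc
AHSG peak, chr3:186612441-186612590, plus strand: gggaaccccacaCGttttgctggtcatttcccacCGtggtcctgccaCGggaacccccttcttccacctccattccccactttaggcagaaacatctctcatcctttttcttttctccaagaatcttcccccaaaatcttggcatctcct
AHSG start, chr3:186612910-186613059, plus strand: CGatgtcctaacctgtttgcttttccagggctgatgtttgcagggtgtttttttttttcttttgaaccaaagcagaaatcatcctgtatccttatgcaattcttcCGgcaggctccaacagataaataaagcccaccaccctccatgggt
APOB peak, chr2:21044381-21044530, minus strand: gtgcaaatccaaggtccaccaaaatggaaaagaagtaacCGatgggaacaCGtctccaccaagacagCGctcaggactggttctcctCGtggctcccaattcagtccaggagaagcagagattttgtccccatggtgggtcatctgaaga
APOB start, chr2:21044074-21044223, minus strand: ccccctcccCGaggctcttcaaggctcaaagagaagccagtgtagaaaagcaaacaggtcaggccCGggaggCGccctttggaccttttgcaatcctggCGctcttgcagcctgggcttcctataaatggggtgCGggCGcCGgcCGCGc
MRPL17 peak, chr11:6683821-6683970, minus strand: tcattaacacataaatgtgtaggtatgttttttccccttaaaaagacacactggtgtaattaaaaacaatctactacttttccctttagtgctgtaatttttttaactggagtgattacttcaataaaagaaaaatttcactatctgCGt
MRPL17 start, chr11:6683341-6683490, minus strand: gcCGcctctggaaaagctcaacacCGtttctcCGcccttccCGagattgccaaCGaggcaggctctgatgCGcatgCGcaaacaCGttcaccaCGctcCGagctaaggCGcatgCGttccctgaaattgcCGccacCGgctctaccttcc
RPSA peak, chr3:39406031-39406180, plus strand: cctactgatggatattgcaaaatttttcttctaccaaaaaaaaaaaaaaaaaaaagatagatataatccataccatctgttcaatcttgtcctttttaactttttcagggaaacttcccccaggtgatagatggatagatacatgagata
RPSA start, chr3:39406566-39406715, plus strand: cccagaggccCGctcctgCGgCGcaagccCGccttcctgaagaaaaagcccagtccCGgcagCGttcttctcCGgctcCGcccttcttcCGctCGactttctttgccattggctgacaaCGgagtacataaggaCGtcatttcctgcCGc
PSMD1 peak, chr2:231056151-231056300, plus strand: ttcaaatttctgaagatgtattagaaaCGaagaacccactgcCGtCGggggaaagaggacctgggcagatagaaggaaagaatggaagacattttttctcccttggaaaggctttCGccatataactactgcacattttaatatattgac
PSMD1 start, chr2:231056695-231056844, plus strand: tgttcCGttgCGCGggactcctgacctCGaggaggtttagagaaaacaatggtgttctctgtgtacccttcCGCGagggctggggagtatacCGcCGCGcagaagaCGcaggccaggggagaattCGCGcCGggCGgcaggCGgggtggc
ZNF45 peak, chr19:43935581-43935730, minus strand: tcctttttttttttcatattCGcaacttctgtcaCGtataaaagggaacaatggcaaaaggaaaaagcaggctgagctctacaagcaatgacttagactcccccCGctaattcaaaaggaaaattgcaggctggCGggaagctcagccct
ZNF45 start, chr19:43935283-43935432, minus strand: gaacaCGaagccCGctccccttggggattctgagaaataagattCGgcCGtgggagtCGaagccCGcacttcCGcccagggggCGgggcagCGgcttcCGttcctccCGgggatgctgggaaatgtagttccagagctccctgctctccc
At MRPL17, 1 CpG in the peak stood against 14 before the TSS. RPSA had 0 and 13, PSMD1 had 4 and 15, ZNF45 had 4 and 11, and APOB had 4 and 9. At the CpG-poor liver promoters the counts were low on both sides, with 0 and 1 at FGA and 3 and 2 at AHSG.

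TTD peaks stopped closer to the TSS on the upstream than on the downstream side. Of the 2780 peaks that ended within 2500 bp of a TSS without containing it, 60.2% (58.4 to 62.0) lay upstream of it, and the excess lay close to the start site. Among peaks of at least the median width of the list the share was 52.8% (49.8 to 55.9), an interval that holds equal numbers on both sides, so the excess over the whole 2500 bp was not detectable for wide peaks. Up to 250 bp from the TSS there were 411 upstream and 45 downstream peaks, an upstream share of 90.1% (87.0 to 92.5). From 251 to 500 bp the share was 84.9% (81.2 to 87.9), and from 501 to 1000 bp it was 57.3% (53.5 to 61.0). Between 1001 and 1500 bp the order had turned, with 218 upstream against 301 downstream peaks and a share of 42.0% (37.8 to 46.3), and it was 41.4% (35.9 to 47.1) from 2001 to 2500 bp. The median upstream distance was 547.5 bp (514 to 589), with quartiles of 254.2 and 1190 bp, against 1245 bp (1205 to 1295) downstream. Peak edges were most frequent 101 to 200 bp before the TSS, where 189 of the 1674 peaks ended, and less frequent in the last 100 bp, where 136 did. Upstream shares were alike for genes on the plus strand, 60.5% (58.0 to 63.0), and on the minus strand, 59.9% (57.3 to 62.5).

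**Figure D1:**
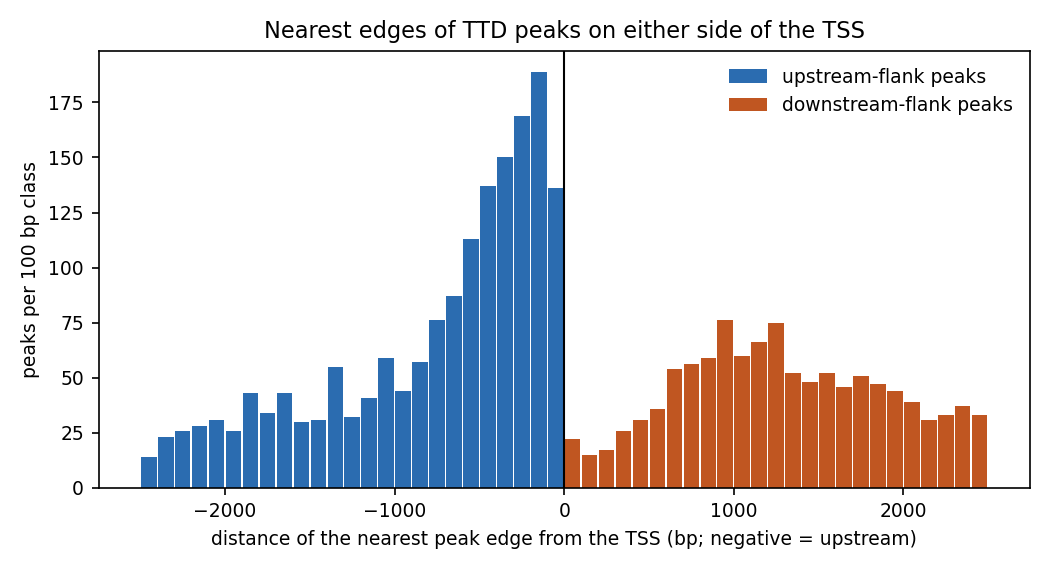
Number of TTD peaks (vertical axis) by the distance of their nearest edge from the TSS in 100 bp classes (horizontal axis, upstream negative), for 1674 upstream-flank (blue) and 1106 downstream-flank peaks (orange). Upstream edges are most frequent 101 to 200 bp before the TSS with 189 peaks, while downstream edges are fewest there with 15.

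At 262 TSSs a TTD peak lay on both flanks, which shows the peak-free gap around single start sites. These were 15.8% (14.1 to 17.6) of the TSSs with an upstream-flank peak, whereas a downstream-flank peak lay at 5.50% of all protein-coding TSSs and at 4.57% (4.28 to 4.88) of the 18370 TSSs without an upstream-flank peak. The gap between the peaks had a median of 1755 bp (1580 to 1940) and ranged from 610 to 4830 bp. Among TSSs with an upstream-flank peak, the share with a downstream-flank peak was 4.54% when starts of all protein-coding transcripts were used, against 1.9% (1.8 to 2.0) of the starts without an upstream-flank peak. It was 6.65% against 1.67% (1.5 to 1.86) within 1000 bp, and 8.52% against 2.66% (2.44 to 2.9) by peak midpoints. The gap was not centred on the TSS. The upstream edge was 416 bp (342 to 476) away at the median and the downstream edge 1220 bp (1126 to 1314), and the upstream edge was the nearer at 220 of 262 TSSs, 84.0% (79.0 to 87.9). The median difference of 704 bp (623 to 801) was 676 bp (591 to 735) when the TSS of the Ensembl canonical transcript was used, and 712 bp (483 to 881) over the 90 TSSs that had no other annotated start more than 100 bp away within 2500 bp. The offset was smaller at CpG-poor start sites. In the lowest quartile of CpG content the median difference was 147 bp (-45 to 483, n = 48), and in the other quartiles it was 793 bp (599 to 1017, n = 53), 773 bp (657 to 1003, n = 85) and 908 bp (613 to 1091, n = 76).

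**Figure D2:**
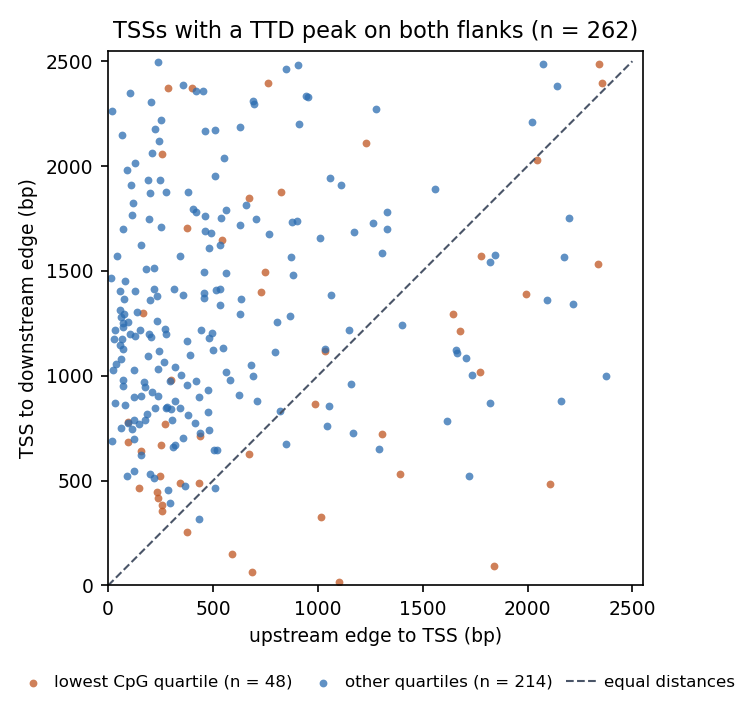
Distance from the TSS to the downstream peak edge (vertical axis, bp) against that to the upstream peak edge (horizontal axis, bp) for the 262 TSSs with a TTD peak on both flanks, with the lowest CpG quartile in orange and the other quartiles in blue. At 220 of the 262 TSSs the point lies above the dashed line of equal distances.

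Named TSSs with both flanks included FGA, with a peak of 3840 bp ending 299 bp upstream and the next starting 982 bp downstream. At SERPINA3, the gene of alpha-1-antichymotrypsin, the edges were 434 bp upstream and 487 bp downstream. MIPOL1, the neighbour of FOXA1, had a peak of 6120 bp that ended 274 bp before its TSS. Among the widest pairs of flanks were those at ABCA9, a lipid transporter, with 1150 bp upstream and 30790 bp downstream, at the unnamed gene ENSG00000283228 with 24540 and 2430 bp, at PTP4A1 with 10340 and 8410 bp, there before an outer start, and at SLC1A4, an amino acid transporter, with 13280 and 3530 bp.

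Flank peaks on both sides were more frequent at CpG-rich start sites, while TTD peaks that covered the TSS were more frequent at CpG-poor ones. CpG content was taken as the observed over expected CpG ratio in 1 kb around the TSS, and all 20033 TSSs were divided into quartiles at 0.329, 0.688 and 0.819. An upstream-flank peak lay at 8.30% of all TSSs, at 4.71% (4.16 to 5.33) in the lowest quartile, 7.27% (6.58 to 8.02) in the second, 11.0% (10.2 to 11.9) in the third and 10.2% (9.4 to 11.1) in the highest. Downstream-flank peaks had the same order of quartiles, with 4.23%, 5.07%, 6.87% and 5.83%. The TSS itself lay inside a TTD peak at 2.94% of all TSSs, and this share fell over the quartiles from 7.09% (6.41 to 7.83) to 0.539% (0.371 to 0.783). The ratio of upstream to downstream flanks was 1.11 in the lowest and 1.75 in the highest quartile. The median ratio of CpG at TSSs with an upstream-flank peak was 0.748 (0.739 to 0.756) against 0.725 (0.711 to 0.738) at TSSs with a downstream-flank peak, 0.688 over all TSSs and 0.259 at TSSs inside a peak, whereas their GC content of 59.5% was close to the 59.2% of all TSSs. Flanks of CpG-poor TSSs ended farther away, at a median of 850.5 bp (731 to 1018) in the lowest quartile against 449.5, 455.5 and 604 bp in the others, and they were wider, with 2240 bp against 1655, 1480 and 1580 bp.

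**Figure D3:**
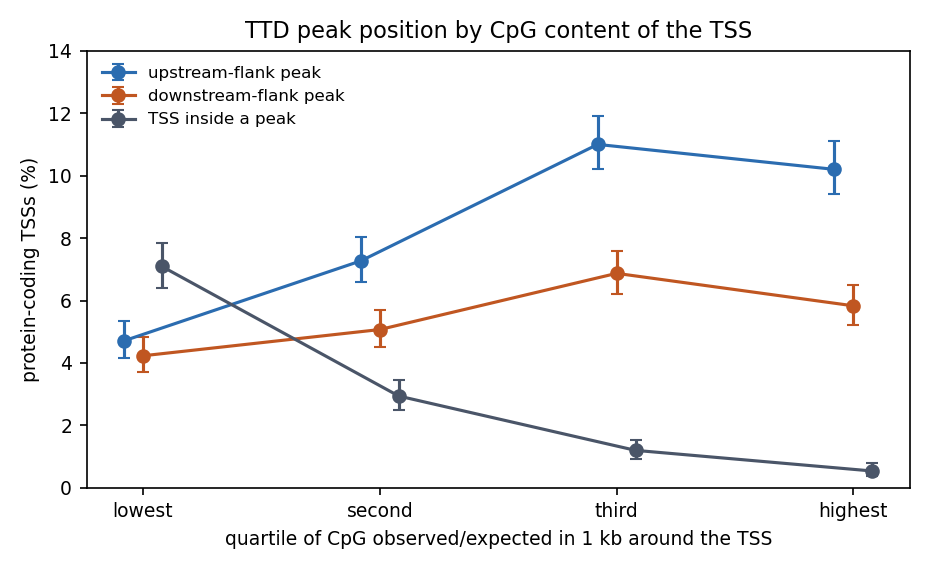
Percentage of protein-coding TSSs (vertical axis) with an upstream-flank peak (blue), with a downstream-flank peak (orange) or inside a TTD peak (grey), by quartile of the CpG observed/expected ratio around the TSS (horizontal axis), with 95% Wilson intervals as bars. Upstream-flank peaks go from 4.71% in the lowest to 10.2% in the highest quartile, and TSSs inside a peak from 7.09% to 0.539%.

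The peaks themselves were CpG-poor, and CpG content was higher between the peak edge and the TSS. In the 1349 upstream-flank peaks that lay at least 200 bp from the TSS, the median CpG ratio was 0.236 within the peak and 0.635 (0.615 to 0.65) in the gap between peak and TSS. Downstream-flank peaks had much the same gap, with a median ratio of 0.63 (0.614 to 0.64). The gap of upstream-flank peaks had the higher ratio at 1196 of them, 88.7% (86.9 to 90.2), and the higher GC content at 81.9% (79.8 to 83.9). Over all upstream-flank peaks the median ratio was 0.252 (0.245 to 0.258), above the 0.193 of the whole peak list and the 0.189 (0.188 to 0.19) of peaks farther than 2500 bp from any TSS. MRPL35 had an unusually CpG-rich flank, with 0.701 in a peak of 540 bp, and AHSG was among the exceptions in which the start site was the poorer, with 0.227 in the peak and 0.111 around its TSS. How well reads from CpG-rich DNA were recovered is not recorded in the list, and its part in where peaks ended was not tested.

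**Figure D4:**
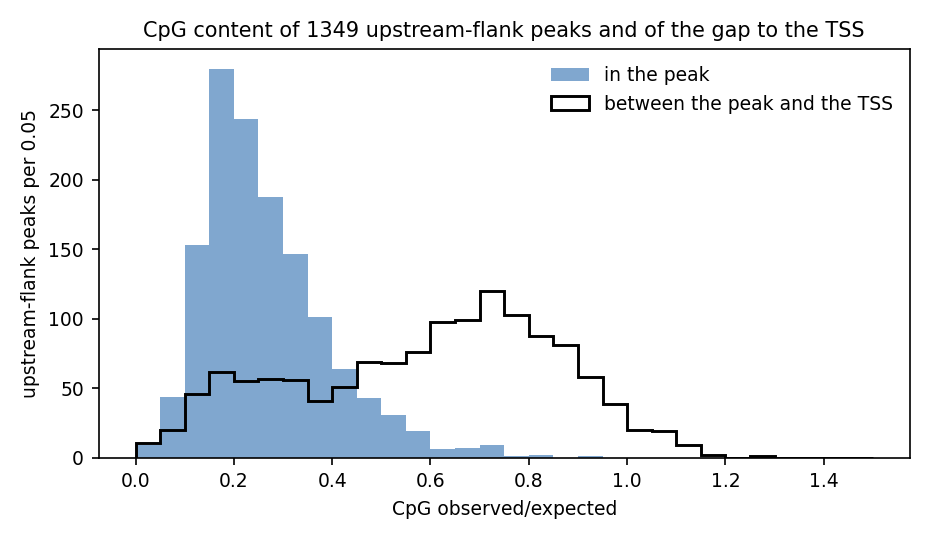
Number of upstream-flank peaks (vertical axis) by CpG observed/expected ratio (horizontal axis), within the peak (blue) and in the gap between the same peak and its TSS (black line), for the 1349 peaks at least 200 bp from the TSS. The median is 0.236 in the peaks and 0.635 in the gaps.

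Upstream-flank peaks were narrower than other TTD peaks, with a median width of 1625 bp (1560 to 1690) against 1985 bp (1900 to 2130) for downstream-flank peaks and 2290 bp (2270 to 2310) for peaks beyond 2500 bp. Since a wide peak near a TSS is more likely to contain it and then is not a member, the rule itself bears on this difference. Width rose with distance, from 1340 bp (1280 to 1440) within 250 bp of the TSS to 2350 bp (1960 to 2710) from 2001 to 2500 bp. The range was 250 to 35620 bp, 124 members reached 5 kb and 17 reached 10 kb. The widest lay before SCN1A, a neuronal sodium channel gene, with 35620 bp ending 1387 bp from its outermost start, which itself lay in another peak and 21194 bp before the canonical start. It was followed by APOB with 31970 bp ending 308 bp from the TSS, ENSG00000283228 with 24540 bp, DACT2, an inhibitor of Wnt signalling, with 14180 bp, and FAM169A with 14100 bp. At CDKN1A, the gene of the cell cycle inhibitor p21, 13630 bp ended 40 bp from the outermost start and 2294 bp from the canonical start.

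The narrowest members were 250 bp at TBC1D3F, 260 bp at TBCE, a tubulin-folding cofactor, 300 bp at LRRC34, 310 bp at IQCF2 and 330 bp at KRTAP5-10. Among the peaks that came nearest to a TSS were those that ended 4 bp before TMEM272, 5 bp before TRIB3, 9 bp before RPF1 and 10 bp before NR1H3, although the canonical starts of TRIB3 and NR1H3 lay 17925 and 9696 bp downstream of the outermost ones. For 75.4% of the 1663 genes the canonical start was within 100 bp of the outermost start, and for 9.14% it was more than 1 kb into the gene. At the distance limit, the members just inside were those of CDC34 at 2500 bp, HES1 at 2498 bp and IER3 at 2493 bp, and the peaks just outside were those of ISL2 at 2503 bp, C1QTNF3 at 2508 bp and TEP1 at 2510 bp. TBC1D3F, like HPR, ORM2, the AKR1C genes and CYP2A6 with CYP2A7 below, has near-identical relatives, and how reads that match several copies were treated is not given in the sources used here.

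Of the 1674 upstream-flank peaks, 1354 or 80.9% (78.9 to 82.7) overlapped no protein-coding gene, against 48.2% (47.6 to 48.7) of peaks farther than 2500 bp from a TSS. Since a peak upstream of its nearest TSS lies outside that gene, the rule largely sets this figure. A long non-coding RNA gene was overlapped by 27.3% (25.2 to 29.5), against 22.1% (21.7 to 22.6) of the farther peaks. The TSS of such a gene lay in 49 or 2.93% (2.22 to 3.85), and the interval holds the 2.54% of the farther peaks. A second protein-coding gene in head-to-head orientation, with its own TSS within 2500 bp on the far side of the peak, was found at 23 peaks, 1.37% (0.917 to 2.05). The next TTD peak was 10680 bp (9730 to 11870) away at the median, near the 9330 bp (9080 to 9610) of the whole list, and 35.5% had another peak within 5 kb.

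Genes of liver function carried upstream-flank peaks more often than the 8.30% of all TSSs. Over 10 lists of hepatic genes with 378 members in all, 62 or 16.4% (13.0 to 20.5) had one. The excess was not particular to the upstream side. Downstream-flank peaks lay at 13.5% of the 378 genes against 5.50% of all TSSs, and in the lowest CpG quartile at 17.8% against 4.23%. The TSS lay inside a peak at 73 of the 378 genes, 19.3% (15.6 to 23.6), against 2.94% of all TSSs. The hepatic genes were CpG-poor as a group, and within the lowest CpG quartile 19.2% (14.5 to 25.1) of 208 hepatic genes had an upstream-flank peak against 4.71% of all TSSs of that quartile, and in the second quartile 13.7% (7.61 to 23.4) of 73 did against 7.27%. No excess was detectable at the CpG-rich hepatic promoters, with 14.3% (7.42 to 25.7) of 56 against 11.0% in the third quartile and 9.76% (3.86 to 22.5) of 41 against 10.2% in the highest. Their flanks had a median width of 2545 bp with quartiles of 1550 and 4448 bp, against 1630 bp over all 1663 TSSs, but flanks of all TSSs in the lowest CpG quartile had 2240 bp (1910 to 2630), an interval that holds the hepatic median. Without chromosomes 2, 6, 14 and 20, on which flanks were most frequent, the hepatic share was 16.4% (12.7 to 20.9) of 317 genes against 6.98% (6.6 to 7.38) of all TSSs left. It was 10.1% against 2.7% of all genes when only peaks of at least the median width were kept, and 10.6% against 5.79% within 1000 bp.

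Lists of secreted plasma proteins differed in their shares, and the differences between lists were not tested. Among plasma carrier and acute-phase proteins, 12 of 43 genes, 27.9% (16.7 to 42.7), had an upstream-flank peak. The widest were 12440 bp at AHSG (fetuin-A), 8200 bp at ITIH2 (a heavy chain of the inter-alpha-trypsin inhibitors), 6080 bp at CP (ceruloplasmin, the copper carrier), 4660 bp at HPR (haptoglobin-related protein) and 3480 bp at SERPINA3. The peak at TF, the gene of transferrin, was 2520 bp and ended 450 bp from the TSS. At RBP4, the retinol carrier, 3190 bp ended at 627 bp, and at ORM2, an acute-phase orosomucoid, 3430 bp ended at 89 bp. Coagulation and fibrinolysis followed with 7 of 27 genes, 25.9% (13.2 to 44.7). FGA and FGG, which encode fibrinogen chains, had flanks of 3840 and 4350 bp at 299 and 284 bp. F11, the gene of factor XI, had 7030 bp at 349 bp, and F13B, a subunit of factor XIII, had 2630 bp at 31 bp. The remaining coagulation genes with a flank encode inhibitors and a vitamin K-dependent protein, namely SERPINC1 (antithrombin) with 1160 bp at 1074 bp, SERPINA10 with 5630 bp at 93 bp and PROZ with 2910 bp at 338 bp. Among complement genes 1 of 26 had a flank, 3.85% (0.682 to 18.9), at CFI (1300 bp at 301 bp), and 8 of the 26 had the TSS inside a peak. The complement interval overlaps those of both lists above and holds the 8.30% of all TSSs.

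Apolipoproteins and lipoprotein handling had 4 of 25 genes with an upstream-flank peak, 16% (6.4 to 34.7), an interval that holds the 8.30% of all TSSs. Besides APOB these were APOA1, the main protein of high-density lipoprotein, with 2370 bp at 1129 bp, its neighbour APOC3 with 1280 bp at 1646 bp, and APOF with 1830 bp at 374 bp and a second peak only 257 bp downstream. Drug metabolism had 14 of 65 genes, 21.5% (13.3 to 33.0), with 17 more TSSs inside a peak. The widest flanks were 8790 bp at CYP3A7, the fetal form of the main hepatic cytochrome, 7480 bp at CYP2C18, 5560 bp at AKR1C3, 4970 bp at AKR1C2 and 4780 bp at the carboxylesterase gene CES1. CYP3A4, the main adult form, had 3030 bp ending 1993 bp upstream, and CYP2A6 had 1420 bp at 1844 bp. The canonical starts of AKR1C2, AKR1C3, UGT2B7 and FMO5 lie over 10 kb into the gene, so their peaks flank an outer start only.

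Bile acid synthesis and transport had 6 of 30 genes, 20% (9.51 to 37.3). They were ABCC2, a canalicular export pump, with 1880 bp at 400 bp, ABCG5, a sterol transporter, with 1010 bp at 596 bp, SLC51B, a subunit of the basolateral bile acid exporter, with 2830 bp at 1307 bp, SLC22A7 with 4210 bp at 1684 bp from the outermost and 4250 bp from the canonical start, AMACR with 2390 bp at 897 bp and FGF19, a hormone that represses bile acid synthesis, with 1170 bp at 1649 bp. In lipid and cholesterol metabolism 8 of 51 genes, 15.7% (8.17 to 28.0), had a flank, and this interval too holds the 8.30%. They included the sterol synthesis gene HMGCS1 (1940 bp at 399 bp) and the sterol sensor gene INSIG2 (6120 bp at 452 bp). ACADL, ACSL5, CPT2, PLIN2 and PNPLA3 also had one, with widths of 4480, 2100, 2420, 1150 and 1390 bp. The outermost start of PLIN2 lay in another peak and 21798 bp before its canonical start. The outermost starts of SLC22A7 and CYP3A7 also lay in another peak. Glucose metabolism had 4 of 25, 16% (6.4 to 34.7), again not apart from all TSSs, among them PCK2 (1770 bp at 63 bp), PYGL, the liver glycogen phosphorylase (3170 bp at 1378 bp), and IGFBP1 (1700 bp at 700 bp). Amino acid catabolism and the urea cycle had 2 of 41, 4.88% (1.35 to 16.1), namely HGD and BHMT, a share whose interval holds the 8.30% of all TSSs.

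Among liver transcription factors and nuclear receptors, 5 of 46 genes had an upstream-flank peak, 10.9% (4.73 to 23.0), and the interval holds the 8.30% of all TSSs. HNF4A, a master regulator of hepatocytes, had 2180 bp ending 2459 bp from the TSS, close to the distance limit. The peak of CEBPA measured 2390 bp at 1707 bp and that of KLF6 2570 bp at 1090 bp. NR1H4, the bile acid receptor, had upstream peaks of 1020 bp at 88 bp and 8990 bp at 1748 bp. NR1H3, an oxysterol receptor, had 560 bp at 10 bp. FOXA1 and SERPINA1 had no TTD peak within 2500 bp of the TSS on either side, and the TSSs of ALB, AFP and MBL2 lay inside peaks.

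Genes of ribosomes and the proteasome also carried upstream-flank peaks more often than the 8.30% of all TSSs. Mitochondrial ribosomal proteins had 16 of 78 genes with an upstream-flank peak, 20.5% (13.0 to 30.8), proteasome subunits 8 of 39, 20.5% (10.8 to 35.5), and cytosolic ribosomal proteins 12 of 88, 13.6% (7.98 to 22.3), the last with an interval that holds the 8.30%. Of these 205 genes together, 36 had an upstream-flank peak, 17.6% (13.0 to 23.4). A downstream-flank peak lay at 7.8% of them, against 5.50% of all TSSs. The TSS lay inside a peak at 1 of the 205, 0.488%, against 2.94% of all TSSs and 73 of 378 hepatic genes. Within CpG quartiles the upstream-flank share was 25.6% (14.9 to 40.2) of 43 genes in the second, against 7.27% of all TSSs there. In the third it was 18.0% (11.4 to 27.2) of 89, against 11.0%. In the highest quartile it was 13.4% (7.23 to 23.6) of 67, and the interval holds the 10.2% of all TSSs there. Their 36 flanks had a median width of 1275 bp with quartiles of 690 and 1980 bp, ended at a median of 418.5 bp, and preceded TSSs with a median CpG ratio of 0.746, close to the 0.748 of all TSSs with a flank and compared with 0.229 for the 62 hepatic genes with a flank. Without chromosomes 2, 6, 14 and 20 the share was 12.7% (8.48 to 18.7) of 165 genes, against 6.98% of all TSSs left.

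The widest flanks of mitochondrial ribosomal genes were 2780 bp at MRPL3, 2250 bp at MRPS5, 2070 bp at MRPS21, 1950 bp at MRPS23 and 1630 bp at MRPL16. Those of cytosolic ribosomal genes were 3660 bp at RPS27A, 3270 bp at RPSA, 3080 bp at RPL37A, 2890 bp at RPS23 and 1560 bp at RPL39L, whose canonical start is 41412 bp downstream of the outermost start. The proteasome members were PSMD1, PSMC4, PSMC1, PSMD7, PSMD14, PSMD8, PSMB10 and PSMA6, with widths of 3170, 3120, 1670, 1520, 1280, 690, 680 and 470 bp. PSMC1 had the nearest edge of them, 57 bp from the TSS, and PSMA6 the farthest, 2323 bp from an outer start that lies 13749 bp before the canonical one.

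**Figure D5:**
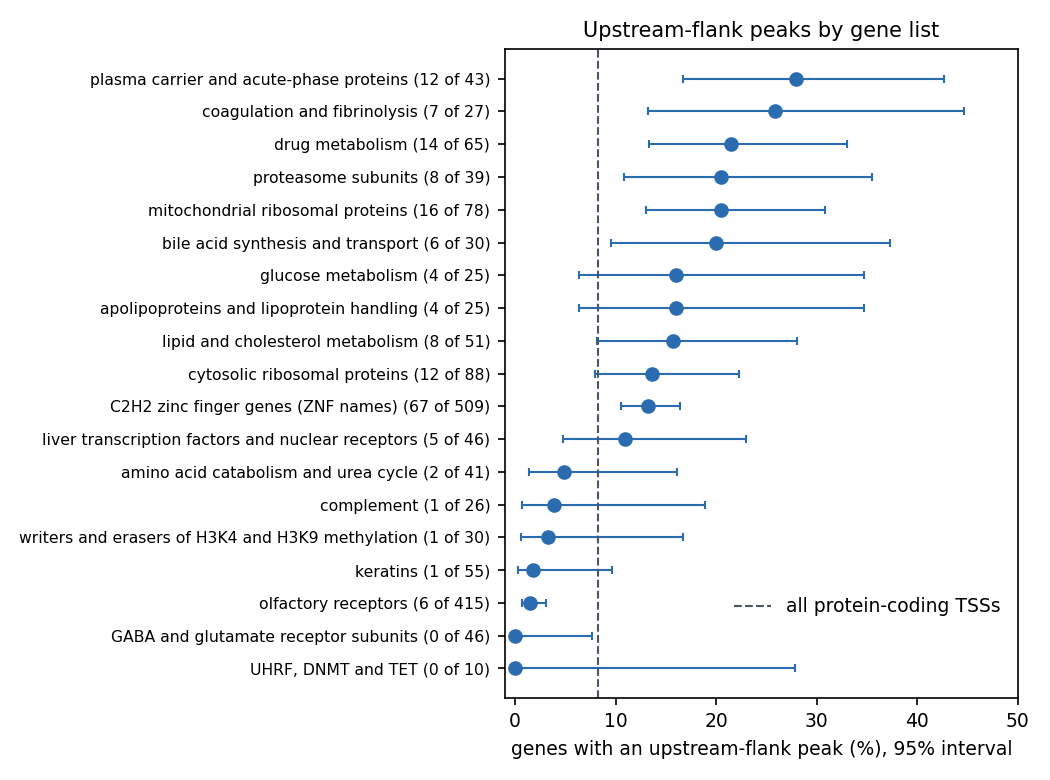
Percentage of the genes of each list with an upstream-flank peak (horizontal axis, with 95% Wilson intervals as bars) for 19 gene lists (vertical axis, with counts), beside the 8.30% of all protein-coding TSSs (dashed line). Plasma carrier and acute-phase proteins stand highest at 27.9% and the lists of UHRF, DNMT and TET genes and of GABA and glutamate receptor subunits at 0.

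Zinc finger genes with ZNF names, mostly repressors of transposable elements and other targets, had 67 of 509 with an upstream-flank peak. This was 13.2% (10.5 to 16.4), against 8.30% of all TSSs. Within CpG quartiles only the third stood apart, with 17.6% (12.9 to 23.6) of 193 genes against 11.0% of all TSSs there. The intervals held the share of all TSSs in the lowest quartile (0 of 33, up to 10.4%), the second (9.34%, 5.91 to 14.4) and the highest (15.8%, 9.99 to 24.2). On chromosome 19, where TTD peaks were sparse and 3.79% of TSSs had an upstream-flank peak, 30 of 246 ZNF genes did, 12.2% (8.68 to 16.9). Of the 1230 other TSSs there, 26 did, 2.11% (1.45 to 3.08). Downstream-flank peaks lay at 8.54% of these ZNF genes and at 1.38% of the other TSSs. On the other chromosomes the upstream-flank share of ZNF genes was 14.1% (10.4 to 18.8), against 8.66% of all TSSs there. The shares on and off chromosome 19 were thus within each other's intervals for ZNF genes. Their flanks were short and close, with a median of 1300 bp at 366 bp. The widest were 4830 bp at ZNF148, 4800 bp at ZNF337, 4250 bp at ZNF311, 3970 bp at ZNF280D and 3620 bp at ZNF460. ZNF45 had 910 bp ending 299 bp upstream and a further peak 842 bp downstream, and ZNF615 had upstream peaks at 81 and 2391 bp.

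Olfactory receptors, which liver cells do not use, had 6 of 415 with an upstream-flank peak, 1.45% (0.664 to 3.12), below the 8.30% of all TSSs and the 4.71% of TSSs in the lowest CpG quartile. They lay at OR2T11, OR2V1, OR4F15, OR4K5, OR5B12 and OR6C2. Keratins had 1 of 55, 1.82% (0.322 to 9.61), at KRT19, a keratin of simple epithelia and bile ducts, and the interval holds the 8.30% of all TSSs. GABA and glutamate receptor subunits had 0 of 46, which allows a share of up to 6.52% (3 counts). Of 10 UHRF, DNMT and TET genes, which maintain, write and remove DNA methylation, none had an upstream-flank peak, a downstream-flank peak or a TSS inside a peak, although so short a list allows an upstream share of up to 30%. Among 30 writers and erasers of H3K4 and H3K9 methylation the only upstream-flank peak, 3.33% (0.591 to 16.7), lay at KDM5C, an H3K4 demethylase gene, with 1880 bp at 539 bp.

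The study listed genes that were lower or higher in HepG2 than in liver, chosen from public expression data and strongly expressed in at least 1 of both. Of the 64 genes on the lower list, 17 had an upstream-flank peak, 26.6% (17.3 to 38.5), and of the 119 genes on the higher list found in the annotation, 17 did, 14.3% (9.11 to 21.7). Without ribosomal proteins the higher list had 7 of 52, 13.5% (6.68 to 25.3). The intervals of the lower and higher lists overlapped, and both lists exceeded the 8.30% of all TSSs, although the interval of the higher list without ribosomal proteins holds it. Downstream-flank peaks lay at 20.3% of the lower and 6.72% of the higher list, against 5.50% of all TSSs. Beside secreted and metabolic genes named above, the lower list held MGST1, a microsomal glutathione transferase (4420 bp at 462 bp), MT2A, a metallothionein (2970 bp at 614 bp), AMBP, the gene of alpha-1-microglobulin (1500 bp at 593 bp), and CYB5A, the gene of cytochrome b5 (1460 bp at 748 bp). Beside ribosomal genes and AKR1C2, the higher list held CALM2, BTF3, HSPA8, HNRNPA3, ROMO1 and YBX1, with widths of 3160, 2490, 1160, 3070, 3910 and 850 bp, that of HSPA8 ending 1465 bp from the canonical start. No expression was measured in this series, and strong expression alone cannot be told apart from the direction of change in these lists.

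Flanks were unevenly spread over chromosomes. The share of TSSs with an upstream-flank peak was 17.0% (14.1 to 20.4) on chromosome 20, 15.7% (13.8 to 17.8) on chromosome 2, 13.8% (11.8 to 16.0) on chromosome 6 and 11.7% (9.39 to 14.5) on chromosome 14, and lowest on chromosome 19 with 3.79% (2.93 to 4.89), the X with 2.21% (1.42 to 3.43) and the Y with 0 of 63, which allows up to 4.76%. TTD peaks of any kind were also densest on chromosomes 20, 2 and 6, with 22.8, 17.2 and 16.7 per Mb against 5.97 on chromosome 19 and 2.15 on the X. As a share of the peaks of each chromosome the order differed, with upstream-flank peaks making up 16.3% on chromosome 19 and 6.33% on chromosome 20. HepG2 carries extra copies of several chromosomes, and the part of copy number in these shares was not tested.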

How the data were processed

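Chromatin of HepG2 cells was measured by CIDOP with the TTD (2 libraries), H3K9me2 ChIP (2) and input (2). Per the labels and the study's methods, the authors trimmed reads with Trimmomatic 0.38, checked them with FastQC 0.72, mapped them to hg38 with HISAT2 2.2.1, computed RPKM coverage in 10 bp bins with deepTools 3.3.2 without blacklisted regions, averaged both TTD replicates, called broad peaks with MACS2 2.1.1 at fixed thresholds and curated them by hand. The deposited values used are peak positions and widths in bp (unit: other), with no score. Pooling hides replicate spread, and only DNA held in nucleosomes yields fragments.

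Peaks were classed against GENCODE v44 gene starts in Python 3.11.15 with numpy 2.4.6, by the distance from peak edge to TSS. Intervals are Wilson and order-statistic intervals at 95%, checked with scipy 1.17.1 and on simulated peaks, and a count of 0 allows up to 3 counts. Motifs were searched in 300 bp windows. Genes were named by rule: members of gene lists (all for lists with up to 10, otherwise the 5 widest and those of textbook role), the 5 widest, narrowest and nearest peaks, 3 on each side of the limit, TSSs with 2 peaks, the 5 widest pairs of flanks, and genes the study names; a few of these are not reported here. The 7 genes with sequences, MRPL35, the 4 chromosomes left out and the subset of TSSs with no other start nearby were picked after their values were seen. The members and gene lists were chosen with earlier results of these data known. Alternatives covered TSS choice, distance limit, width, joining and midpoints. No groups of samples were compared, as the peak list used holds the mean of both TTD replicates and the single libraries were not analysed here.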

Additional observations from a re-analysis of the deposited data

How the results depend on the processing

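No paired analysis was possible because the peak list used here was called on the mean of both TTD replicates, and for the same reason no replicate could be left out of it. Values of the single libraries were not analysed here. The median edge difference kept its direction in the alternatives for which it was computed. So did the share within 250 bp, which the limits of 1000 and 5000 bp cannot change and which was not computed for midpoints. With the canonical start the values stayed within the original intervals except the median CpG ratio (0.76), and 87.0% of the peaks remained upstream-flank peaks. With starts of all protein-coding transcripts the upstream share of near-TSS peaks was 57.6%, that within 250 bp 80.5%, the share of upstream-flank TSSs with both flanks 4.54%, the CpG ratio 0.707 and the edge difference 489 bp. With starts of genes of any type these were 53.1%, 69.8%, 11.7%, 0.559 and 599 bp, for 2529 peaks of median width 1810 bp. With only peaks of at least the median width of the list, 541 peaks of 3460 bp remained, the shares were 52.8% (49.8 to 55.9), where the upstream excess was no longer detectable, 82.5% and 10.5%, the ratio 0.723 and the difference 497 bp. A limit of 1000 bp gave 74.7%, a width of 1470 bp, both flanks at 6.65% and 431 bp, and a limit of 5000 bp gave 56.7%, 1740 bp and both flanks at 20.3%. Distances to the peak midpoint gave 67.3%, 1350 bp and 8.52%, with a single peak left within 250 bp. Joining peaks under 1 kb apart gave both flanks at 13.9%. Without chromosomes 2, 6, 14 and 20, an alternative chosen after seeing the data like all those of the edge difference and the 250 bp share, the width was 1545 bp and both flanks 12.8%.

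The share of hepatic genes with an upstream-flank peak was 10.1% for wide peaks, 10.6% and 21.4% for the limits of 1000 and 5000 bp and 9.79% for midpoints, against 2.7%, 5.79%, 10.9% and 6.22% of all genes, and it exceeded the share of all genes in the other alternatives too. The cause of these shifts was not tested. The list gives no depth, so a promoter without a listed peak may still hold weaker binding.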

Other observations

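At 11 TSSs 2 separate TTD peaks lay upstream within 2500 bp, and none had 3. Besides NR1H4, ZNF615 and MRPS10 these were the TSSs of SLC25A44, SH3D19, DCTN4, CHMP3, ALG14, TMEM218, LIMK2 and LUC7L3. At CHMP3, a gene of membrane remodelling, 780 bp ended 62 bp upstream, 3940 bp ended 2272 bp upstream, and a further 8450 bp began 1079 bp downstream. At DCTN4, a dynactin subunit gene, 1010 bp ended at 86 bp and 4650 bp at 1836 bp. At SLC25A44, a mitochondrial carrier gene, 480 bp ended at 72 bp and 6940 bp at 1802 bp.

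Short motifs were searched on both strands in the 300 bases before the TSS. GGGCGG, the core of the GC box, stood in 55.0% (52.6 to 57.4) of the 1663 promoters with an upstream-flank peak, in 50.7% (50.0 to 51.4) of all promoters and in 19.5% (16.5 to 22.9) of those inside a TTD peak. TATAAA stood in 10.4% (9.03 to 12.0), 12.0% (11.5 to 12.4) and 19.9% (16.8 to 23.3). CCAAT stood in 39.9% (37.5 to 42.2), 37.0% (36.3 to 37.7) and 40.7% (36.9 to 44.8). Promoters with a downstream-flank peak had much the same shares as those with an upstream-flank peak. They were 54.6% (51.7 to 57.5) for GGGCGG, 11.1% (9.35 to 13.1) for TATAAA and 39.0% (36.2 to 41.9) for CCAAT. In the central 300 bp of the 1674 upstream-flank peaks, TGTTTAC, a forkhead motif, stood in 5.02% (4.07 to 6.17) against 6.23% (5.97 to 6.51) of all TTD peaks, and CAAAGTCCA, an HNF4-type motif, stood in 0.597% (0.325 to 1.1) against 1.6% (1.46 to 1.74). A match is a run of letters and no evidence of binding.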
